A study of Mus musculus with 6 samples.

Results

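The 74 genes described here encode proteins of the mitochondrial ribosome and were chosen by name: every gene on the array whose only annotated symbol begins with Mrpl (47 genes, large subunit) or Mrps (27 genes, small subunit), out of 12393 genes with such a probe set. A probe set is a group of short array probes that read 1 transcript. The 74 genes had 127 probe sets, and each gene was represented by the one with the highest mean. White adipose tissue of 8-week-old mice was measured after 4 days at 4 °C, with 3 samples per group and 1 array per sample. Both groups were of mixed C57BL6 and 129 background and carried floxed alleles of Yy1 (YY1flox/flox), which encodes a DNA-binding protein able to switch genes on or off. The group called YY1aKO also carried Adiponectin Cre, a recombinase driven by a promoter active in adipocytes, and the control group did not. All mice were kept in the cold, so the comparison holds no animal at a warmer temperature. An effect of Cre itself cannot be told apart from one of losing Yy1. The labels do not say that samples came from separate animals, so p-values here reflect only how these samples vary, which may be technical. The labels disagree on the depot: the tissue field says visceral and the sample titles EWAT (epididymal white adipose tissue), and the series title says subcutaneous.

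Mitochondria carry their own ribosome, which is distinct from that of the cytosol and translates only the few messages of mitochondrial DNA, all of them for core subunits of the respiratory chain and the ATP synthase. Its RNAs come from mitochondrial DNA, while all its proteins are encoded in the nucleus, made in the cytosol and imported. Some of these proteins have counterparts in bacterial ribosomes, and others were acquired in the mitochondrial lineage. In fat, mitochondrial translation matters for the heat-producing adipocytes that cold recruits, and YY1 is known from other cells as a regulator of many nuclear genes for mitochondria.

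The 6 arrays had median intensities from 134.2 to 140.2, and the targeted gene separated the groups. Yy1 read 1785, 1846 and 1596 across controls 1 to 3, then 373, 323 and 315 across YY1aKO 1 to 3, which is -2.37 ± 0.11 on the log2 scale (± SE of the fit, n = 3 per group; limma adjusted p = 0.0021). Its 3 other probe sets gave -1.21, -1.03 and -0.06, the last on a dim reading. Control 2 stood apart. Its summed reading of 7 measured epididymis markers was 91910, against 868 on control 3 and 182 to 203 on the rest. Most of the 868 was Gpx5, at 639, and control 3 stays in the fits without control 2. The summed reading of 8 measured white adipocyte markers was 67306 on control 2, against 86155 to 109969 on the other 5 arrays. The fat markers Adipoq and Fabp4 read at least 18586 on every array, but most of the 8 markers were lowered more in control 2. Their median difference from the mean of the other controls was -1.15 log2 units, from -1.57 (Lipe) to -0.24 (Fabp4), with Adipoq at -0.41. Over the 74 genes, control 2 lay a median of 0.17 log2 units below the mean of the other controls (-0.05 over all genes tested). It was the lowest control for 48 of the 74, and for 48.6% of all genes tested. The counts are therefore given with 6 arrays and again without control 2, as 2 control against 3 YY1aKO arrays. For a single gene past the threshold with 6 arrays, the value without control 2 is given only for some; all 38 such members kept their call and direction there. In such whole-tissue RNA, fewer cells of a type and less RNA per cell cannot be told apart.

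More mitochondrial ribosomal protein genes were higher than lower in the fat of YY1aKO mice. Of the 74 genes, 34 rose, 4 fell and 36 did not pass the test (limma, Benjamini-Hochberg adjusted p under 0.05 over 7436 genes). Among all genes tested 20.7% passed, 12.9% as higher and 7.8% as lower. With no filter on dim genes 28 members rose and 4 fell, where 10.8% of 12393 genes passed, 6.85% higher and 3.99% lower. The median log2 fold change was 0.41 over the 74 genes and 0.06 over all genes tested. The rises ran from 0.40 (Mrpl14) to 1.54 (Mrps15) on the log2 scale, and 3 reached 2-fold: Mrps15, Mrps18a and Mrps22. The falls were in Mrpl37, Mrps35, Mrpl27 and Mrpl19. All 38 genes that passed had their 3 YY1aKO values outside the range of the 3 controls. In all, the groups did not overlap for 44 higher and 7 lower members, where the shares of all genes tested were 27.9% and 19.6%, or 47.5% together. All 74 genes lay above the filter on dim genes, which kept 60% of all genes, so none was lost to it.

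Without control 2 the 34 rises and 4 falls all held in the same direction, and 6 more genes were higher and 3 more lower, making 40 higher, 7 lower and 27 not past the threshold. The share of all genes tested that passed was then 45.1%, with 25.5% higher and 19.6% lower. With no filter, 37 members were higher and 5 lower, beside 26.1% of all genes, 14.7% higher and 11.5% lower. The median was 0.37 over the members and 0.03 over all genes tested. Values of the groups lay apart for 47 higher and 10 lower members, beside 37.8% and 31.4% of all genes tested, or 69.2% together. The count with 6 arrays hung on the other arrays too: 28 rose without control 1, 5 without control 3, 6 without YY1aKO 1 and none without YY1aKO 2 or without YY1aKO 3. In these last 2 fits, 37 and 35 members were higher at an unadjusted p under 0.05 in limma, and only 33 and 24 of all genes tested passed the adjusted threshold. No member that passed with 6 arrays changed direction when any 1 array was left out.

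Some markers of other mitochondria-rich cells differed between the groups and others did not. The summed reading of 11 skeletal muscle markers ran from 724 to 1617 among controls and from 3350.4 to 3995 among YY1aKO arrays. Acta1 and Myl1 made up most of it on each array, and of the 11 only these 2 lay above the filter level. Acta1, an actin, read 178, 109.9 and 171 across controls 1 to 3, then 1944, 1107 and 1942 across YY1aKO 1 to 3. Tnnc2, a troponin, read 35.5, 22.0 and 33.1 across controls 1 to 3, then 145, 248 and 124 across YY1aKO 1 to 3, and the myosin light chain gene Myl1 read 1143, 316 and 1069 across controls 1 to 3, then 1615, 1704 and 1318 across YY1aKO 1 to 3. All 3 had every YY1aKO value above every control. Acta1 and Tnnc2 passed (Tnnc2, under the filter level, in the fit with no filter), and Myl1 passed only without control 2 (1.08 with 6 arrays, limma adjusted p = 0.18; 0.47 and 0.028 without control 2). The myosin heavy chains Myh1, Myh2 and Myh4 read at most 20.5 on every array. Ckm, Actn3, Tnnt3 and Tnni2 overlapped between the groups and did not pass. Mylpf, in the fit with no filter, had 0.37 with 6 arrays (limma adjusted p = 0.072) and passed without control 2 (0.43, 0.022). The sum of 8 brown adipocyte markers ran from 573 to 1499.7 among controls and from 1485 to 2861 among YY1aKO arrays, with 3 of the 8 above the filter level. The ranges overlap, and these markers did not move together. Ucp1, the uncoupling protein of heat-producing fat cells, read 24.7, 23.8 and 25.5 across controls 1 to 3, then 118, 67.6 and 306 across YY1aKO 1 to 3, and Cidea, a lipid droplet protein of the same cells, read 199.8, 63.8 and 99.4 across controls 1 to 3, then 579.9, 676 and 845 across YY1aKO 1 to 3. Both rose, as did Cox7a1, a respiratory chain subunit. Ppargc1a, a coactivator that drives the making of mitochondria, fell, reading 163, 134 and 242 across controls 1 to 3, then 22.3, 15.3 and 35.0 across YY1aKO 1 to 3 (log2 fold change -2.94 ± 0.36, limma adjusted p = 0.012 in the fit with no filter, which Ppargc1a and Ucp1 needed; -3.12 and 0.0044 without control 2). Cox8b overlapped between the groups (0.22, and -0.46 without control 2). Elovl3 and Dio2, both under the filter level, had every YY1aKO value above every control but passed in neither fit with no filter. With 6 arrays Elovl3 had 2.21 (limma adjusted p = 0.14) and Dio2 0.34 (0.17). Zic1 overlapped and did not pass. The part of these cells in the rise of the ribosomal genes was not tested.

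**Figure D1:**
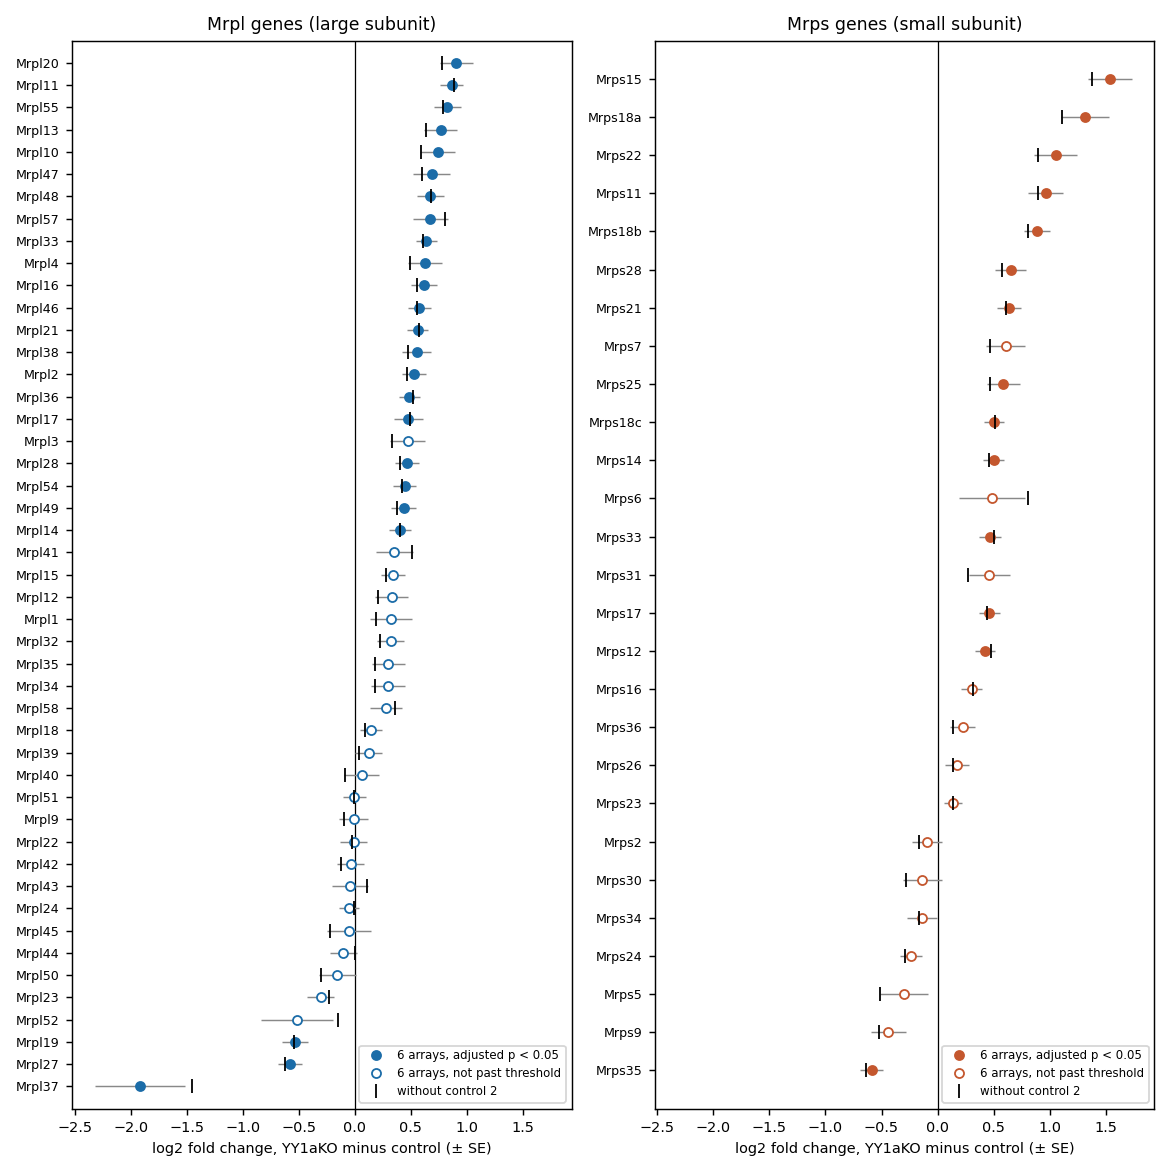
Log2 fold change (YY1aKO minus control, horizontal axis, bars are ± SE) of each of the 47 Mrpl genes (left) and 27 Mrps genes (right), filled where the limma adjusted p with 6 arrays was under 0.05 and open otherwise; black ticks give the value without control 2. Most points lie to the right of 0, Mrps15 farthest at 1.54, and Mrpl37 stands alone on the left at -1.92.

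Promoter sequence was read for 65 of the 74 genes from RefSeq (GRCm38.p6), as windows of 250 bases before to 50 after each annotated start. As YY1 is the deleted factor, its known recognition letters AANATGGCG were searched on both strands. They stood in the windows of 10 of the 65 members (15.4%), of 6.6% of 6075 genes tested and of 2.76% of all 27025 genes with a window. The sites are shown because they lie in genes that rose, fell and did neither. Each line gives the gene, the place and strand of the gene and the sequence 5′ to 3′ in the direction of the gene, with the matched letters in capitals (reversed and complemented in Mrpl36 and Mrps11).
Mrpl37, chr4:107066822-107066850, minus strand: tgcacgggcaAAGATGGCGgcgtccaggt
Mrpl27, chr11:94653789-94653817, plus strand: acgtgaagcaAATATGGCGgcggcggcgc
Mrps24, chr11:5707652-5707675, minus strand: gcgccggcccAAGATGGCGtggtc
Mrps18a, chr17:46111005-46111033, plus strand: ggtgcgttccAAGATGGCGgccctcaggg
Mrps11, chr7:78783013-78783041, plus strand: ctacgggcgcCGCCATCTTtctgtcttcc
Mrpl36, chr13:73330968-73330996, plus strand: cgtgaccttaCGCCATCTTtcttcctggc
Mrpl35, chr6:71823743-71823771, minus strand: ggcaggctgcAAGATGGCGgcttccatct
Mrpl42, chr10:95501904-95501932, minus strand: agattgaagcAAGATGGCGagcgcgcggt
Mrpl58, chr11:115403762-115403790, plus strand: ctgggaggtgAACATGGCGaccgcctggg
Mrps30, chr13:118387219-118387247, minus strand: gcggcgggcgAAAATGGCGgcggccaggt
In 8 of the 10 the match began 9 to 37 bases after the start and read along the gene. The other two, Mrps11 at -108 and Mrpl36 at -31, lay before it on the opposite strand. The letters contain an ATG, and whether any of these is the start codon was not read here. Of the 29 members with a window that rose with 6 arrays, 3 held the letters (Mrps18a, Mrps11 and Mrpl36), against 5 of 34 that did not pass. Of the 4 that fell, Mrpl37 and Mrpl27 have a window and both held them. Without control 2, 3 of 5 lower members with a window held them, the third being Mrps24. A match is only a run of letters, and binding was not measured here. The NRF1 motif was searched too and stood in 12 members (18.5%, against 13% of genes tested and 5.19% of all genes with a window), and those of the ETS factor GABPA, CCGGAAGT, in 11 (16.9%, against 9.93% and 4.31%). Both are known activators of nuclear genes for mitochondria, and no match of one of the 3 motifs overlapped a match of another in these genes.

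Among the small-subunit genes the largest rise was in Mrps15, whose bacterial counterpart binds ribosomal RNA early in assembly. It read 1247, 824 and 1037 across controls 1 to 3, then 2479, 3330.2 and 3154 across YY1aKO 1 to 3. Every YY1aKO value was above every control, and the log2 fold change was 1.54 ± 0.20 (2.9-fold, limma adjusted p = 0.009; 1.38 without control 2). Mrps11, which sits with it on the platform of the small subunit, read 263, 240.1 and 291 across controls 1 to 3, then 425, 559 and 575 across YY1aKO 1 to 3. Its log2 fold change was 0.96 ± 0.15 (limma adjusted p = 0.014). These were among the members least dependent on a single array: Mrps15, Mrps11 and the large-subunit gene Mrpl11 passed in 4 of the 6 fits that left out 1 array, missing only without YY1aKO 2 or YY1aKO 3, and no member passed in more.

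The 3 relatives of bacterial protein S18 all rose. Mrps18a read 1122, 675 and 933 across controls 1 to 3, then 1896, 2326 and 2452 across YY1aKO 1 to 3, a log2 fold change of 1.31 ± 0.21 (limma adjusted p = 0.015; 1.11 without control 2). Despite its name, structures of the mammalian ribosome place its protein in the large subunit. Mrps18b read 542, 444 and 505 across controls 1 to 3, then 886, 869 and 1001 across YY1aKO 1 to 3 (0.89 ± 0.12, limma adjusted p = 0.01). Mrps18c read 2001, 2029 and 1939 across controls 1 to 3, then 2663, 2821 and 2969.5 across YY1aKO 1 to 3 (0.50 ± 0.09, limma adjusted p = 0.018). The 3 share ancestry, but each has a probe set of its own and none overlapped between groups.

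Mrps22, a mitochondria-specific protein in which human mutations cause a mitochondrial translation defect, read 671, 498 and 722 across controls 1 to 3, then 1073, 1506 and 1332 across YY1aKO 1 to 3. The log2 fold change was 1.05 ± 0.20 (limma adjusted p = 0.019). Mrps12, the protein at the decoding centre, read 1061, 1180.5 and 1069 across controls 1 to 3, then 1452, 1459 and 1527 across YY1aKO 1 to 3 (0.42 ± 0.09, limma adjusted p = 0.028). Rises of 0.46 to 0.65 were also seen in Mrps28 (0.65), Mrps21 (0.64), Mrps25 (0.59), Mrps14 (0.50), Mrps33 (0.47) and Mrps17 (0.46). With Mrps35, which fell, these make up the 14 Mrps genes past the threshold.

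Mrps35, of the head of the small subunit, was the only Mrps gene to fall with 6 arrays. It read 837, 702 and 724 across controls 1 to 3, then 506, 486 and 510.3 across YY1aKO 1 to 3, a log2 fold change of -0.59 ± 0.10 (limma adjusted p = 0.017; -0.64 without control 2). The YY1aKO values lay close together and below all controls. Of 6 members listed here for that head, which may not be all, 50% passed with 6 arrays, beside 20.7% of all genes tested. Mrps14 and Mrps33 rose, Mrps35 fell and 3 did not pass. Mrps7 had 0.61 ± 0.17 (limma adjusted p = 0.057) and Mrps9 -0.44 ± 0.15 (0.094), and without control 2 both passed, at 0.47 and -0.52. The last of them, Mrps31, passed in neither fit (limma adjusted p = 0.13 and 0.054).

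Some small-subunit genes turned on control 2. Mrps6 read 1266, 2512 and 1317 across controls 1 to 3, then 2119, 2683 and 2016 across YY1aKO 1 to 3, so that control 2 lay within the YY1aKO range while the other controls lay well below it. It differed by 0.48 ± 0.29 with 6 arrays (limma adjusted p = 0.28) and was higher by 0.80 ± 0.14 without control 2 (0.0068). Mrps5, whose knockdown lengthens the life of worms, read 309, 175 and 243 across controls 1 to 3, then 177, 195 and 204 across YY1aKO 1 to 3, with the low control being control 2. It differed by -0.30 ± 0.22 with 6 arrays (limma adjusted p = 0.36) and was lower without control 2 (-0.52 ± 0.13, 0.022). Mrps24 was lower (-0.29, limma adjusted p = 0.038) and Mrps16 higher (0.32, 0.029) without control 2, and neither passed with 6 arrays. Mrps30, also placed in the large subunit by structures, read 860.3, 551 and 646 across controls 1 to 3, then 595, 595 and 652 across YY1aKO 1 to 3 and passed in neither fit (-0.14 and -0.28). Mrps36, whose protein is now counted as part of a citric acid cycle enzyme complex and not of the ribosome, read 926, 756 and 889 across controls 1 to 3, then 934, 1021 and 1039 across YY1aKO 1 to 3 and also passed in neither (0.22 and 0.14).

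**Figure D2:**
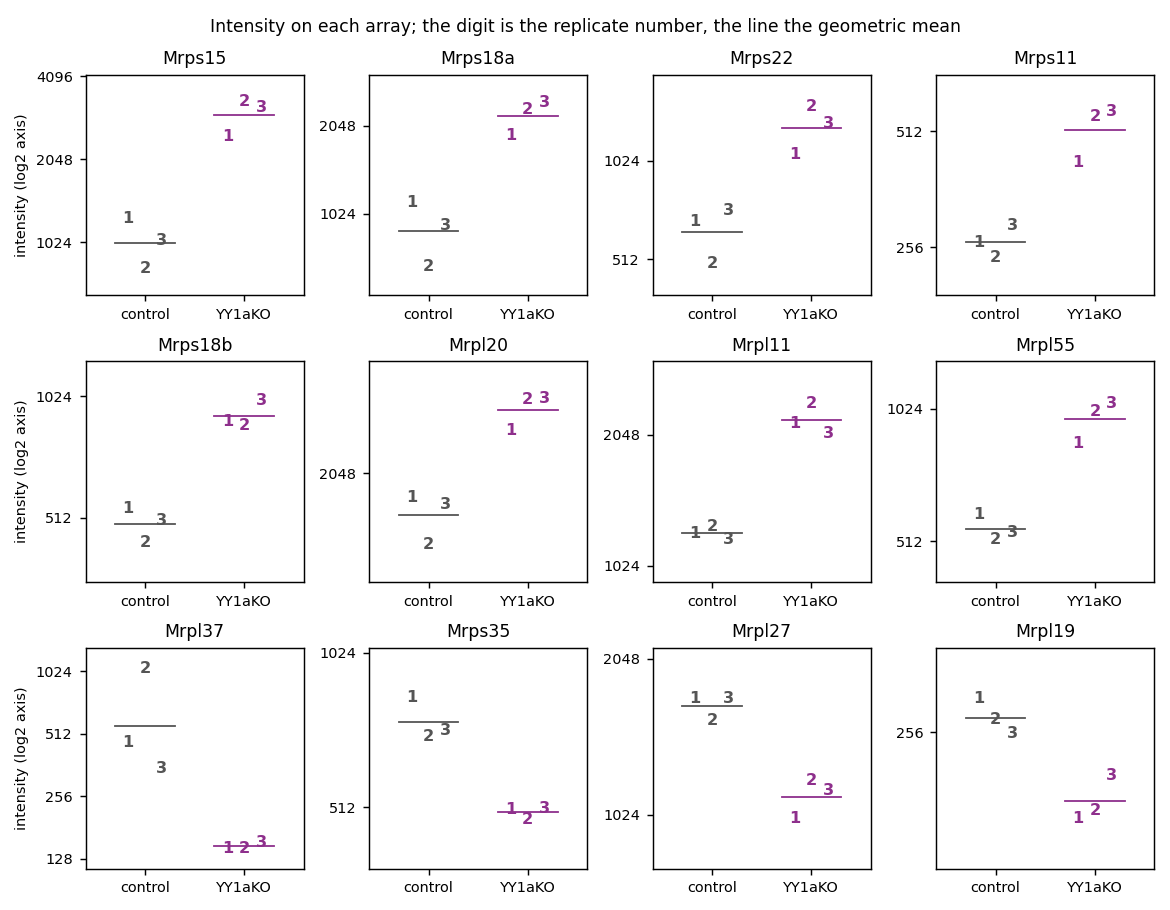
Intensity on each array (vertical axis, log2 spacing) for 12 members; digits are replicate numbers and lines geometric means of each group. The top 8 panels show genes that rose and the bottom 4 those that fell, Mrpl37 with control 2 at 1059 far above the other controls.

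In the large subunit, genes of the flexible stalk, which recruits translation factors, came out as follows. Mrpl11, at the base of the stalk, read 1216, 1259.5 and 1177 across controls 1 to 3, then 2176, 2414 and 2064 across YY1aKO 1 to 3. Its groups were far apart beside the narrow spread within each, with a log2 fold change of 0.86 ± 0.10 and the lowest limma adjusted p of the 74 genes (0.0078). Mrpl10 read 769, 542 and 702 across controls 1 to 3, then 1025, 1149 and 1153 across YY1aKO 1 to 3 and rose by 0.74 ± 0.15 (limma adjusted p = 0.026). Mrpl12, which also binds the mitochondrial RNA polymerase, read 1101, 869 and 1128 across controls 1 to 3, then 1143, 1325 and 1414 across YY1aKO 1 to 3; the groups did not overlap, but it did not pass (0.33 ± 0.15, limma adjusted p = 0.16, or 0.21 without control 2).

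Of 7 measured genes for the central protuberance, the crest of the large subunit, 4 rose and 1 fell (71.4%, beside 20.7% of all genes tested). Mrpl55 read 589, 517 and 537 across controls 1 to 3, then 855, 1011 and 1049.8 across YY1aKO 1 to 3 (0.82 ± 0.12, limma adjusted p = 0.011). Mrpl48 (0.67 ± 0.12), Mrpl46 (0.57 ± 0.10) and Mrpl38 (0.55 ± 0.13) also rose. Mrpl27, which lies near the site of peptide bond formation, fell. It read 1714, 1559 and 1717 across controls 1 to 3, then 1008, 1191 and 1142 across YY1aKO 1 to 3, with every YY1aKO value below every control, and a log2 fold change of -0.58 ± 0.11 (limma adjusted p = 0.019; -0.63 without control 2). Its promoter window holds one of the YY1 matches printed above. Mrpl18 and Mrpl40 did not pass in either fit.

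Genes for the exit tunnel, where the new chain leaves toward the inner membrane, held 2 rises among 8 measured (25%, near the 20.7% of all genes tested that passed), Mrpl47 (0.69 ± 0.17) and Mrpl17 (0.48 ± 0.13), and 6 that passed neither with 6 arrays nor without control 2. Mrpl44, an RNase III-like protein in which human mutations cause a cardiomyopathy, read 840.4, 1076 and 892 across controls 1 to 3, then 859, 851 and 892 across YY1aKO 1 to 3. The readings of the 2 groups interleave (-0.10 ± 0.12, limma adjusted p = 0.58, and 0.00 without control 2, where the sign turns). Mrpl39 read 2547, 2192 and 2677 across controls 1 to 3, then 2627, 2535 and 2899 across YY1aKO 1 to 3 (0.12 ± 0.12), again with overlap.

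Other large-subunit genes with bacterial counterparts gave most of the further rises. Mrpl20, whose bacterial counterpart binds early in assembly, read 1774, 1341 and 1704 across controls 1 to 3, then 2643, 3168 and 3183 across YY1aKO 1 to 3, a log2 fold change of 0.91 ± 0.15 (limma adjusted p = 0.015). Mrpl13 rose by 0.77 ± 0.15, Mrpl33 by 0.64 ± 0.09, Mrpl4 by 0.63 ± 0.15, Mrpl16 by 0.62 ± 0.11, Mrpl21 by 0.56 ± 0.10 and Mrpl2, which lies beside the catalytic centre, by 0.53 ± 0.11. Mrpl36 (0.49), Mrpl28 (0.47) and Mrpl14 (0.40) rose by less, with limma adjusted p from 0.021 to 0.042. Of the genes without a bacterial counterpart, Mrpl57 (0.67 ± 0.15), Mrpl54 (0.44 ± 0.10) and Mrpl49 (0.43 ± 0.12) rose. The other probe set of Mrpl49, nearly as bright, gave 0.09 (limma adjusted p = 0.56 over all probe sets) and 0.03 without control 2.

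The largest change of all 74 genes was the fall of Mrpl37, a mitochondria-specific large-subunit protein. It read 463, 1059 and 350.1 across controls 1 to 3, then 143, 144 and 154 across YY1aKO 1 to 3. The YY1aKO arrays lay close together and below every control, while control 2 was the highest control. The log2 fold change was -1.92 ± 0.40 (limma adjusted p = 0.026), and -1.45 ± 0.13 without control 2 (0.0014). Its only probe set carries the suffix _s_at, which marks probes that can match more than 1 transcript. Probe sets with this suffix also represented Mrps12 and Mrpl38, which rose, and Mrps24. Mrpl19 read 296, 270.0 and 254 across controls 1 to 3, then 175, 182 and 211 across YY1aKO 1 to 3 (-0.53 ± 0.12, limma adjusted p = 0.029), also from an _s_at probe set. Its other probe set above the filter level read lower in YY1aKO as well (-0.33) without passing.

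Other large-subunit genes overlapped between the groups or depended on the probe set. Mrpl51 read 3018, 2878 and 2758 across controls 1 to 3, then 2636, 2942 and 3062 across YY1aKO 1 to 3, a difference of -0.00 ± 0.10 whose sign turns to 0.04 when every array is set to the same median. Mrpl1, among the dimmest members, read 266, 175 and 196 across controls 1 to 3, then 238, 250.5 and 299.9 across YY1aKO 1 to 3 (0.32 ± 0.19, limma adjusted p = 0.27). A second probe set of Mrpl1, about as bright, gave 0.48 with 6 arrays (limma adjusted p = 0.089 over all probe sets) and 0.63 without control 2 (0.0052), and the mean of its probe sets passed with 6 arrays (0.33, limma adjusted p = 0.048). A further set of 3 genes did not pass with 6 arrays and were higher without control 2: Mrpl41 (0.51, limma adjusted p = 0.0094), Mrpl3 (0.33, 0.045) and Mrpl15 (0.28, 0.047). Mrpl3 and Mrpl15 were also higher without control 1 (limma adjusted p = 0.045 and 0.048), and all 3 with array weights on 6 arrays. Mrpl52 differed by -0.52 ± 0.32 with 6 arrays and by -0.15 without control 2, where control 2 read 2971 against 1289 and 1469 in the other controls, and passed in neither fit.

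Both subunits held more rises than falls. With 6 arrays 21 of 47 Mrpl genes rose and 3 fell, with a median of 0.34, and 13 of 27 Mrps genes rose and 1 fell, with a median of 0.46. Without control 2 the counts were 24 and 3 for Mrpl (median 0.33) and 16 and 4 for Mrps (median 0.46). With 6 arrays 51.1% of Mrpl and 51.9% of Mrps genes passed, beside 20.7% of all genes tested. Without control 2 it was 57.4% and 74.1%, beside 45.1%. With Mrps18a and Mrps30 placed in the large subunit and Mrps36 left out, 22 of 49 large-subunit genes rose and 3 fell (median 0.34), and 12 of 24 small-subunit genes rose and 1 fell (median 0.47). The difference between the subunits was not tested. Split by ancestry, 25 of 46 genes with a bacterial counterpart rose and 2 fell (median 0.47), and 9 of 28 without one rose and 2 fell (median 0.16). Without control 2 these were 30 and 5 of 46 (0.46) and 10 and 2 of 28 (0.14). With 6 arrays 58.7% and 39.3% passed, beside 20.7% of all genes tested. Without control 2 it was 76.1% and 42.9%, the latter near the 45.1% of all genes tested. The difference by ancestry was not tested either, and it rests on a list made with results of these data known.

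By array, the median distance of the Mrpl genes from the mean of controls 1 and 3 was 0.23, 0.34 and 0.39 in YY1aKO 1 to 3 and -0.16 in control 2. For the Mrps genes it was 0.31, 0.44 and 0.49, and -0.21 in control 2. YY1aKO 1 was the lowest YY1aKO array for 58 of the 74 genes, and for 36.7% of all genes tested. Each of the 3 YY1aKO arrays lay above all 3 controls by this median, in both subunits.

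**Figure D3:**
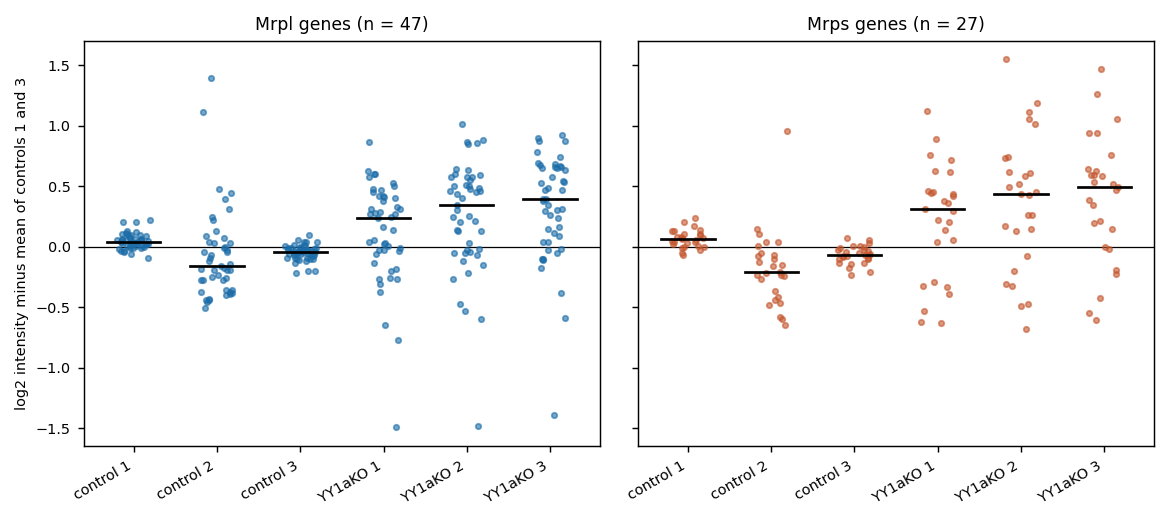
Log2 intensity of each Mrpl (left) and Mrps gene (right) on each array minus the mean of controls 1 and 3 (vertical axis); each point is a gene and lines are medians. The medians of YY1aKO 1 to 3 run from 0.23 to 0.39 for Mrpl and from 0.31 to 0.49 for Mrps, and control 2 lies below 0 in both.

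Probe sets of 1 gene did not always give the same call. Of 22 members with more than 1 probe set over the filter level, 3 (Mrpl19, Mrpl28 and Mrps14) were called by some and not by others with 6 arrays, adjusting over all probe sets, and 8 without control 2. None was called in opposite directions. The second probe set of Mrps14 read 164 to 227 among controls and 251 to 295 among YY1aKO arrays, with a log2 difference of 0.48 beside 0.50 for the one used. For Mrpl28 the brightest of its probe sets gave 0.47, and the one that did not pass 0.22.

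Ribosomal proteins known by other symbols and factors that build or drive the ribosome were read from lists made with earlier results of these data known. Of 4 further ribosomal proteins, Dap3 rose and Gadd45gip1 fell (50%, beside 20.7% of all genes tested). Dap3, of the small subunit, read 1376, 1212 and 1365 across controls 1 to 3, then 1883, 1958 and 2050.0 across YY1aKO 1 to 3 (0.58 ± 0.10, limma adjusted p = 0.016). Gadd45gip1, of the large subunit, read 489.5, 425 and 419.8 across controls 1 to 3, then 209, 238 and 247 across YY1aKO 1 to 3 (-0.94 ± 0.12, limma adjusted p = 0.0086). Ptcd3 passed in neither fit, and Chchd1 was higher without control 2 (0.30 with 6 arrays, limma adjusted p = 0.11; 0.34 and 0.047 without control 2).

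Of 18 measured assembly factors, 7 rose and 1 fell, with a median of 0.28; that is 44.4%, beside 20.7% of all genes tested. Fastkd2, an RNA-binding protein needed for the large ribosomal RNA, had the largest rise of the list. It read 244, 264 and 235 across controls 1 to 3, then 744, 736 and 866 across YY1aKO 1 to 3, a log2 fold change of 1.66 ± 0.11 (limma adjusted p = 0.0031), and passed without each of the 6 arrays in turn. The helicase Dhx30 read 694, 643 and 677 across controls 1 to 3, then 1081, 1146 and 1189.8 across YY1aKO 1 to 3 (0.76 ± 0.09, limma adjusted p = 0.0081). Trub2, Eral1, Mtg1, Noa1 and Mrm1 rose by 0.42 to 0.93. Rpusd4, an enzyme that modifies the large ribosomal RNA, fell (-0.99 ± 0.12, limma adjusted p = 0.0082). The counts were 8 and 1 without control 2 (50%, near the 45.1% of all genes tested), where the median of the assembly factors was 0.17.

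A list for translation held 11 measured genes, of which Letm1, Oxa1l, Lrpprc and Slirp are not translation factors in the strict sense. Of the 11, 1 rose and none fell, with a median of 0.19 (Oxa1l was lower at an unadjusted p under 0.05 in limma). That is 9.09%, beside 20.7% of all genes tested. Without control 2, 2 were higher (Mtfmt and Letm1) and 1 lower (Mrrf), which is 27.3%, beside 45.1% of all genes tested. Mtfmt, which puts the formyl group on the initiator transfer RNA, read 195, 163 and 169 across controls 1 to 3, then 236, 238 and 263 across YY1aKO 1 to 3 (0.49 ± 0.11, limma adjusted p = 0.032). Of 17 genes for mitochondrial transcription, RNA processing and DNA upkeep, Elac2 (0.67 ± 0.15) and Tefm (0.58 ± 0.14) rose and Hsd17b10 fell, a share of 17.6% beside 20.7% of all genes tested. Without control 2, 4 were higher and 2 lower (35.3%, beside 45.1%). Hsd17b10, a dehydrogenase that is also a subunit of the enzyme cutting the 5′ ends of mitochondrial transfer RNAs, read 2362, 1792 and 2292 across controls 1 to 3, then 542, 645 and 697 across YY1aKO 1 to 3 (-1.77 ± 0.16, limma adjusted p = 0.0064). Every YY1aKO value lay far below every control. Of 8 measured regulators of nuclear genes for mitochondria, 6 lay above the filter level, and none of the 6 passed with 6 arrays (1 was lower at an unadjusted p under 0.05 in limma). Of the 2 below it, Ppargc1a fell in the fit with no filter, with the values given above. Its controls all read above the filter level of 114.1 and its YY1aKO arrays all below it. Gabpb1 did not pass (0.21). Ppargc1b, a relative of Ppargc1a, did not pass with 6 arrays (-0.73 ± 0.27, limma adjusted p = 0.11) and was lower without control 2 (-0.99, limma adjusted p = 0.0065). Of the messages this ribosome reads, 1 had a probe set of its own, ND5, which encodes a subunit of complex I. It read 9961, 6468 and 10382 across controls 1 to 3, then 9021, 9344 and 9554 across YY1aKO 1 to 3 and did not pass (0.09 ± 0.20, limma adjusted p = 0.78). Without control 2 the sign of ND5 turned (-0.13, limma adjusted p = 0.21). Its YY1aKO values all lay below controls 1 and 3, and it did not pass there either.

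Cytosolic ribosomal proteins gave other counts. Of 39 tested, none rose (none also at an unadjusted p under 0.05 in limma) and 1 fell, Rps19 (-0.47 ± 0.10), with a median of -0.10. Without control 2, Rpl27 and Rpl37 were higher, Rps19 and Rpl22 lower, and the median was 0.00. Control 2 lay 0.27 log2 units above the other controls by the median of this list and 0.17 below them for the mitochondrial one. Nuclear-encoded subunits of the respiratory chain, here with the ATP synthase, moved both ways. Most of them, though not those of complex II, are partners of proteins the mitochondrial ribosome makes. Of 77 tested, 9 rose and 7 fell (median 0.10). Without control 2, 18 were higher and 21 lower (50.6%, near the 45.1% of all genes tested, median 0.03). The share of members that passed was 51.4% for the mitochondrial ribosome, 20.8% for the respiratory chain and 2.56% for the cytosolic ribosome, beside the 20.7% of all genes tested. These differences between lists were not tested. The lists also differed in brightness, with median log2 readings of 10.11, 12.15 and 13.24 in the same order, and the part of brightness was not tested.

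**Figure D4:**
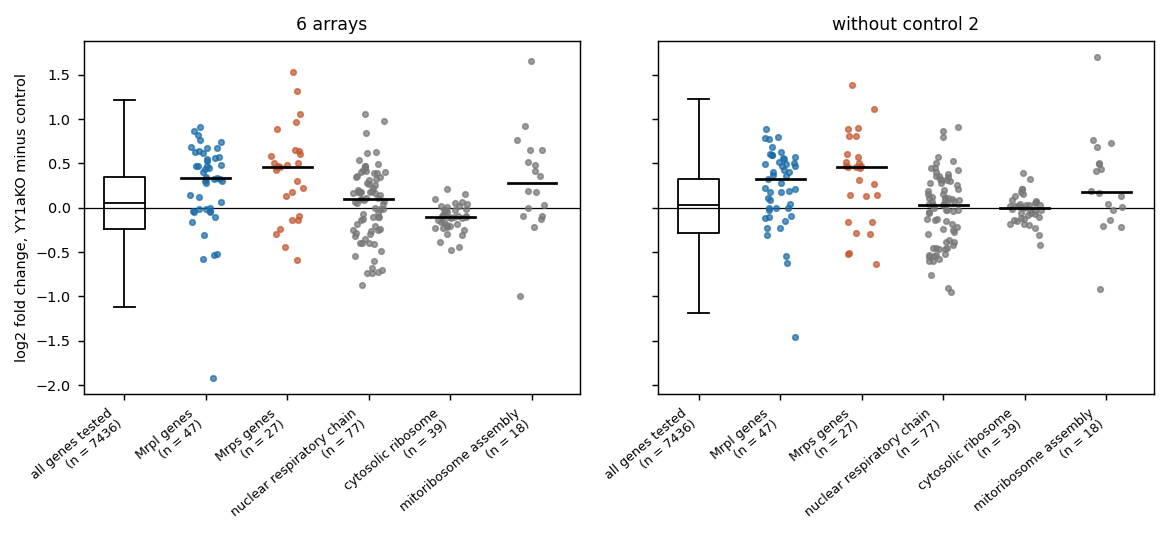
Log2 fold change (vertical axis) with 6 arrays (left) and without control 2 (right) for all 7436 genes tested (box: quartiles, whiskers to 1.5 times the box, genes beyond them not drawn) and, as points with a line at the median, for 5 groups of genes. The medians of the Mrpl (0.34 and 0.33) and Mrps genes (0.46 and 0.46) lie above 0 in both panels, and that of the cytosolic ribosome at -0.10 and 0.00.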

How the data were processed

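The deposited file gives an intensity for each probe set on every array. Per the submitters' processing notes the authors used RMA, with version and settings not given in the sources used here. RMA corrects the background and gives every array a like spread of values, and a shift common to most genes is lost in that step. The deposited intensities run from 6.09 to 30322 on a linear scale, and log2 was taken first. Of 22690 probe sets, 64 array controls were left out, 20380 had 1 gene symbol, 691 several and 1555 none in the platform annotation. The 74 members matched the RefSeq gene table by Entrez ID. Each gene was represented by its brightest probe set, and the 60% of genes with the highest mean (at least 114.1, or 6.83 on the log2 scale) were tested with limma 3.58.1 in R 4.3.3 (lmFit and eBayes, two-sided, Benjamini-Hochberg, threshold 0.05). The fit was tested on simulated data in which 100 genes changed 2-fold and 100 changed 4-fold. With 6 arrays it recovered 58% and 91% of them, and without control 2 80% and 92%. False calls made up 2% and 3.9% of the calls in these fits. Most changes of the members were under 2-fold, so a member that did not pass may still have changed. Alternatives changed the probe set rule, filter, scaling, prior, weights, replicate block and arrays.

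Members and lists were chosen with earlier results of these data known, and the promoter motifs after the values were seen. Named genes are Yy1, every member past the threshold, the 6 largest rises and falls that passed only without control 2, the 3 brightest and 3 dimmest, 10 key genes, members whose probe sets differ in call, and up to 2 genes per direction of each further list; others were named after their values were seen. The number of arrays limits the precision.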

Additional observations from a re-analysis of the deposited data

How the results depend on the processing

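With the mean of probe sets, no _s_at or _x_at probe sets, no filter, the brightest 40% of genes, the same median on every array, quantile normalization again, a trend with robust prior, or array weights, 28 to 39 members rose with 6 arrays and 37 to 42 without control 2. Only the falls varied by more: 2 with 6 arrays and 4 without control 2, both without _s_at and _x_at probe sets and among the brightest 40% of genes; with 6 arrays the falls lost without those probe sets were Mrpl19 and Mrpl37. No label says whether replicate numbers pair the samples. Same-numbered arrays deviated from their group means with correlations of -0.14, -0.13 and -0.12. These cannot decide it, as control 2 stood apart and so shaped the deviations of all 3 controls. With the replicate block 0 rose and 0 fell with 6 arrays (35 and 4 at an unadjusted p under 0.05 in limma), and 18 and 3 without control 2; the cause was not tested. Leaving out 1 array gave 0 to 40 rises and 0 to 7 falls with 6 arrays, and 25 to 38 rises and 3 to 8 falls without control 2 (a lone control is there assumed to vary like the YY1aKO arrays). The medians of both subunits stayed within the spread between arrays in every setting. Among named genes signs turned for 3 that passed with neither set of arrays: Mrpl44 (0.049 with the mean of probe sets, -0.176 to 0.002 with 1 array left out), Mrpl51 (0.311 with the mean of probe sets, 0.044 with the same median on every array, -0.05 to 0.058 with 1 array left out) and Mrps30 (-0.28 to 0.041 with 1 array left out). Signal over background was not read here, so what it limits in dim genes is not known.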
